A study of Homo sapiens with 6 samples.

Results

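The genes examined here were the NRF2 antioxidant and detoxification genes, a list of 41 genes matched by gene symbol in a table of 58174 genes. All 41 were found, and 40 of them were among the 16006 genes abundant enough to be tested. The cells were A549, an established line derived from a human lung adenocarcinoma. Parental cells (Ctrl, 3 libraries) were compared with MIR21-KO cells (3 libraries), in which Cas9 and a pair of guide RNAs had removed the MIR21 locus, and both were collected 48 h after plating without further treatment. MIR21-KO cells were grown from single sorted cells, Ctrl cells were not, and how many clones lie behind the 3 MIR21-KO libraries is not given, so clonal differences and the deletion cannot be told apart. The study calls its RNA-seq samples independent, while the labels do not say whether the libraries of a group came from separate cultures or clones, and the p-values measure the spread between these samples.

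NRF2, encoded by NFE2L2, is the transcription factor that switches on defence against oxidants and electrophiles. In most cells KEAP1 captures NRF2 and hands it to the proteasome, and reactive molecules release NRF2 by modifying KEAP1. Free NRF2 pairs with a small MAF protein such as MAFG and binds antioxidant response elements in the promoters of genes for glutathione synthesis, peroxide reduction, NADPH supply, conjugation of foreign compounds and iron storage. A549 cells carry a mutated KEAP1 gene, and their NRF2 programme is known to be active without an added stress.

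The binding element was looked up first, since it is what ties these genes together in sequence. Its core, TGACNNNGC on either strand, was searched in RefSeq promoter windows of GRCh38.p14, which run from 250 bases before to 50 bases after each annotated start and were given for 33 of the 41 genes. The core was found for 14 of the 33 genes (42.4%), against 4384 of 27305 genes (16.1%) with such windows. Some of the matches are shown, the first 3 because those genes passed the test below and the other 2 because they belong to textbook NRF2 targets. The core is in capitals, GPX2, CYP4F11 and GCLM lie on the minus strand and EPHX1 and TXNRD1 on the plus strand, and each sequence is written along its gene.
GPX2, chr14:64942849-64942877: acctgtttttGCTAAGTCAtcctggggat
EPHX1, chr1:225825266-225825294: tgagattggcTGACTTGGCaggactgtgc
CYP4F11, chr19:15935005-15935033: ctgtgcccatGCTGTGTCAccctgagctg
GCLM, chr1:93909446-93909474: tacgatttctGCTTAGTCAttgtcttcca
TXNRD1, chr12:104286920-104286948: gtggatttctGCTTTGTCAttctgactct
The same search for the AP-1 type element TGANTCA, whose letters can overlap the core, matched 5 of the 33 genes (15.2%) against 9.37% of all genes with windows. In GSTP1, ME1 and PIR the elements overlapped. Such matches describe letters in a window and not bound sites.

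The deleted locus encodes miR-21-5p, a microRNA that pairs through its seed, bases 2 to 8, with complementary sites in 3′ UTRs. The mature sequence and the sites of 3 NRF2 genes are shown because they are the longest matches among these genes and a match of a gene that passed the test below, with the seed of the microRNA and the matched bases in capitals. The microRNA lies at chr17:59841273-59841294 on the plus strand of GRCh38.p14. GCLM, NR0B1 and AKR1C2 lie on the minus strand, and their sites were read from the longest 3′ UTR in GENCODE 29 (GRCh38).
miR-21-5p: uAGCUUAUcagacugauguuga
NR0B1, chrX:30304301-30304328: tactagtataATAAGCTAttttcacaag
GCLM, chr1:93887854-93887881: ttgcaaataaATAAGCTAtgaactttga
AKR1C2, chr10:4989854-4989880: gcgacttcagTAAGCTAcagctaagcc
Only genes abundant enough to be tested and with an annotated 3′ UTR were counted, 40 NRF2 genes and 11659 genes in all. NR0B1 and GCLM held an 8mer, that is a match to the seed followed by an A. They were 2 of the 40 NRF2 genes (5%), against 2.98% of the 11659 genes. AKR1C1, AKR1C2 and GSTM3 held a shorter match of 7 bases ending in that A (7.5% against 4.59%). Counting every match of at least 7 bases, 5 of the 40 NRF2 genes had one (12.5%), against 15.1% of the 11659 genes.

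Between 10631667 and 14345209 reads stood behind each library. Values are FPKM, fragments relative to the gene length and the library size the authors used. That length exceeds the longest annotated transcript for some genes, such as MGST1, so levels of different genes compare only roughly. MIR21 itself was listed at 0 FPKM in all 6 libraries, and as polyA selection does not retain the mature microRNA or its precursor, this checks nothing. The cells expressed the epithelial keratins KRT8, KRT18 and KRT7 at 414.2 to 673.4 FPKM on average. EPCAM was low at 1.19 and 0.695 FPKM in Ctrl and MIR21-KO, and CDH1 was called lower, with 8.18 and 2.86 FPKM. Of the 7 epithelial markers, 3 had a log2 fold change above 0 and 4 below, and CDH1 alone was called. KRT19 and MUC1 were among those above 0, at 0.29 and 0.66. Summed over the list, 5 leucocyte markers reached at most 0.369 FPKM and 4 endothelial markers at most 0.0855 in any library. The sum of 6 fibroblast markers was 7.51 to 8.36 FPKM in Ctrl and 12.9 to 13.1 in MIR21-KO. THY1 was called higher, with means of 2.28 and 7.15 FPKM, whereas LUM and COL1A1 were not called (log2 fold changes −0.19 and 0.18). DCN and PDGFRA were too low to be tested, and COL1A2 was listed at 0 in all libraries. The part of such cells in the results was not tested. In bulk RNA, fewer cells making a transcript and less of it per cell cannot be told apart.

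The MIR21-KO libraries varied more among themselves than the Ctrl libraries, and the NRF2 genes shared in this. The median SD of log2 values was 0.0532 in Ctrl and 0.187 in MIR21-KO over the 40 NRF2 genes, and 0.125 and 0.209 over all 16006 genes tested. Among genes averaging 20 FPKM or more, it was 0.0492 and 0.180 for 31 NRF2 genes, and 0.0648 and 0.170 for all 2416. Of the 40 NRF2 genes, 32 (80%) were higher in MIR21-KO replicate 1 than in replicate 3, against 52.0% of all genes tested and 73.1% of the 2416 genes averaging 20 FPKM or more. The median difference between these libraries was 0.33 on the log2 scale for the NRF2 genes and 0.25 for those 2416 genes. Across the 40 genes the difference ran with the GC content of the transcript (Spearman 0.55) and against gene length (Spearman −0.53). Over the 2416 genes these values were 0.52 and −0.54. They are correlations over genes of the same libraries and come without a test. FTL, a short transcript, stood at 7394 FPKM in MIR21-KO replicate 1 and at 4850 in replicate 3, whereas the long transcript of SLC7A11 ran the other way, from 15.9 to 31.5 FPKM. The part of this drift in the results below was not tested, but the tests were also run on values from which the dependence of every library on GC content and length had been taken out.

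**Figure D1:**
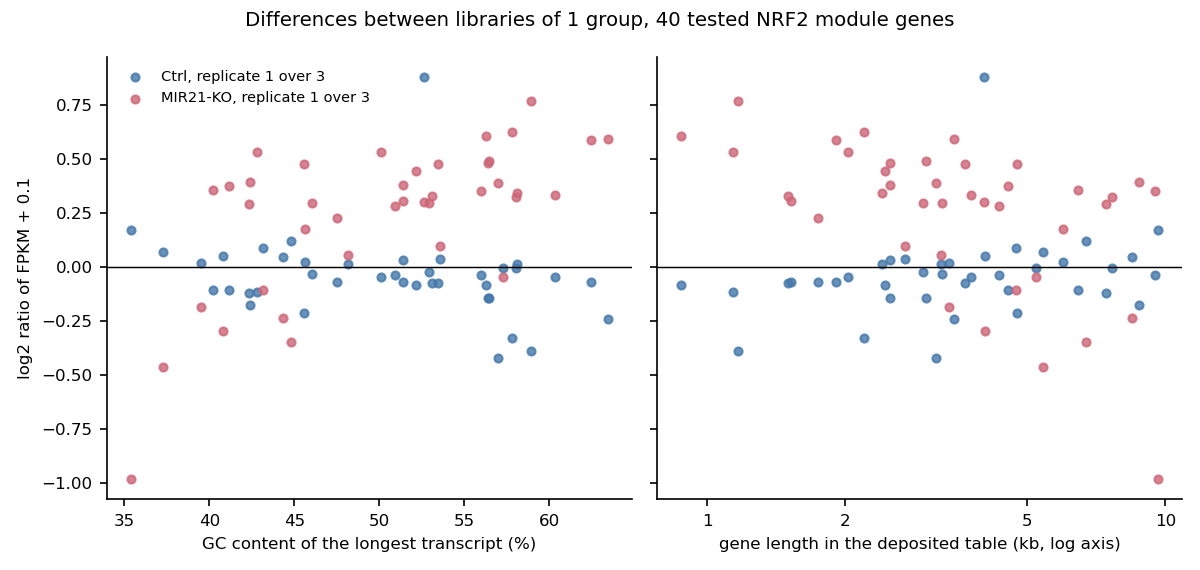
Log2 ratio of FPKM + 0.1 between replicates 1 and 3 of the same group for the 40 tested NRF2 genes, plotted against the GC content of the longest transcript (left, %) and gene length (right, kb, log axis). Each point is 1 gene, blue for Ctrl and red for MIR21-KO. Most red points lie above 0, 32 of the 40, and those below 0 are mostly transcripts of low GC content.

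By listed FPKM, several NRF2 genes were among the most abundant transcripts. FTL, the light chain of the iron store ferritin, had the highest mean of all listed genes, and the heavy chain FTH1 ranked 4. The list held 9 of the 100 highest means, and 21 of its 41 genes averaged at least 50 FPKM. Together they made up 5.50, 5.57 and 5.64% of the summed FPKM in the Ctrl libraries and 5.13, 4.90 and 4.42% in the MIR21-KO libraries. FTL and FTH1 supplied most of these sums, and no test was made of the shares. All 37 mitochondrial genes were listed at 0 in every library, so they do not enter these ranks and shares.

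**Figure D2:**
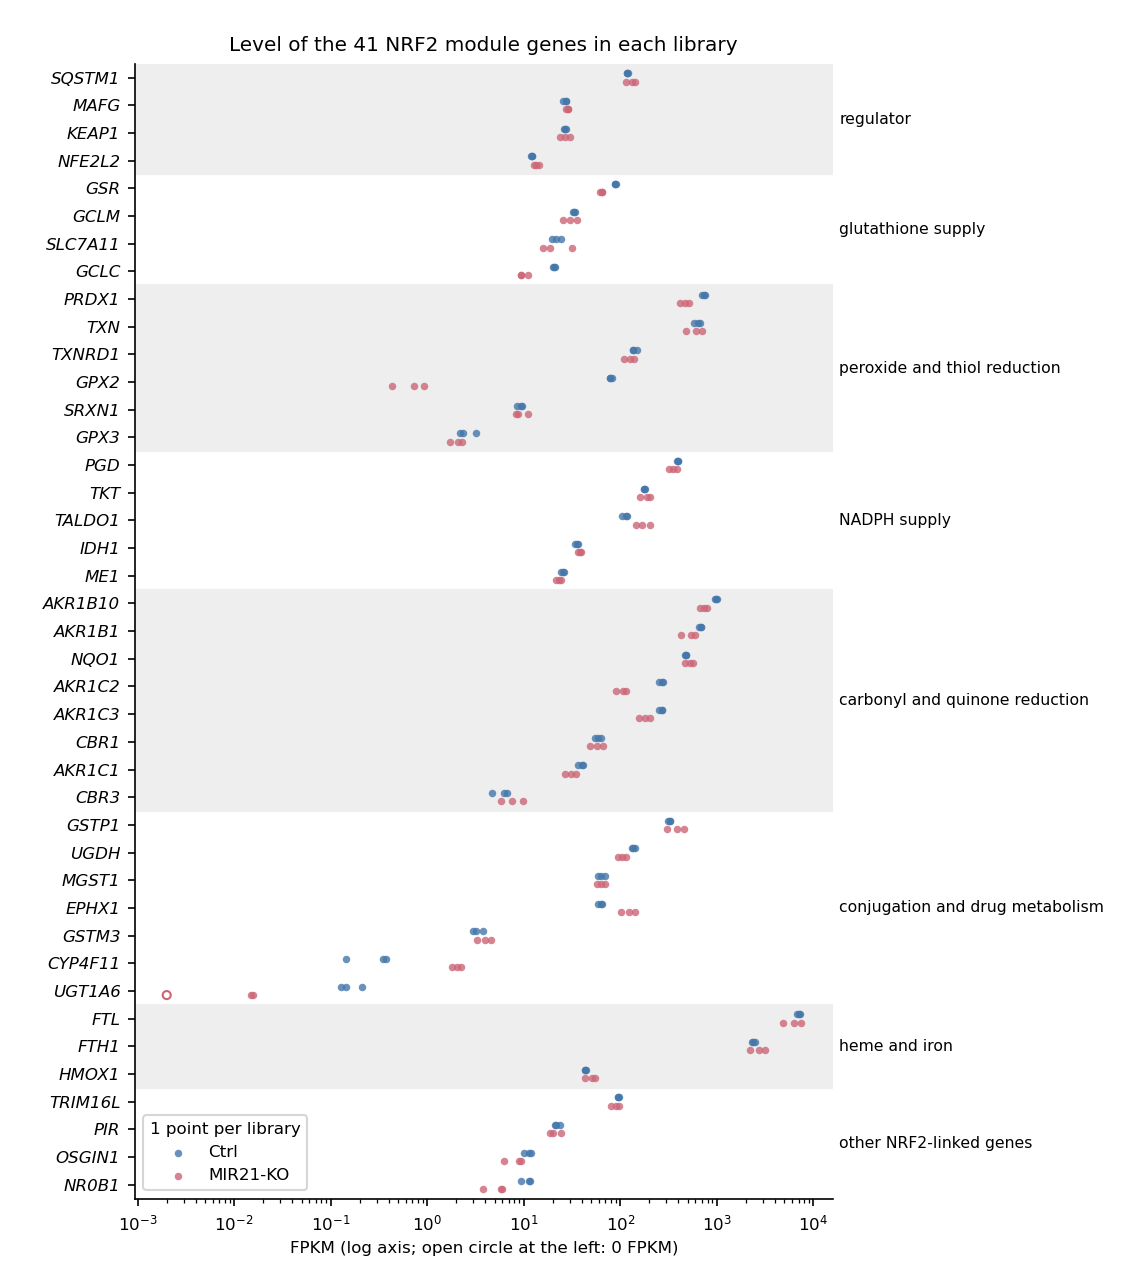
FPKM of each of the 41 NRF2 genes in each library (log axis, 1 point per library), grouped by role, blue for Ctrl and red for MIR21-KO, with an open circle for a listed value of 0. GPX2 shows the widest gap between groups, and CYP4F11 and UGT1A6 are the genes listed below 1 FPKM in Ctrl.

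To see whether loss of MIR21 shifted the programme, each gene was tested with limma on log2(FPKM + 0.1) and called at a false discovery rate (FDR) under 0.01 over all 16006 genes. Fold changes are MIR21-KO over Ctrl on that scale, which understates changes of genes near 0. Of the 40 NRF2 genes, 8 (20%) were called, against 16.0% of all genes tested. EPHX1 and CYP4F11 rose (5% of the 40), where 7.66% of all genes were called higher. CYP4F11 entered the test only through its MIR21-KO values, so its call lends no weight to this count. GPX2, AKR1C2, GCLC, NR0B1, PRDX1 and GSR fell (15%), where 8.38% of all genes were called lower. The differences between the shares of NRF2 genes and of all genes were not tested, and they depended on the genes compared. Among genes averaging at least 5 FPKM, 8 NRF2 genes (21.6%) were called, against 25.9% of all such genes. Among protein-coding genes, 10 (25%) were called, against 27.8%. The median log2 fold change of the NRF2 genes was −0.08 against −0.02 for all genes. With the minimum of 5 FPKM these medians were −0.091 and −0.085. An FDR under 0.05 gave 12 NRF2 genes (30%), 3 higher and 9 lower, where 32.0% of all genes passed. Groups did not overlap in 18 of the 40 (45%), 5 higher and 13 lower in MIR21-KO, where 48.1% of all genes had separate groups. Calls with at least a 2-fold change numbered 5 (12.5%), CYP4F11 among them, against 6.44% of all genes. The count of 8 depended on single libraries, as did the count over all genes. It was 4 when any Ctrl library was left out and 3 when MIR21-KO replicate 2 was left out, but 10 or 12 when replicate 1 or 3 of MIR21-KO was dropped. Of all genes, 5.45 to 5.76% were called in the first of these fits, 4.80% in the second, and 13.7 and 21.2% in the last. Removing the trends on GC content and length gave 13 NRF2 genes (3 higher, 10 lower) and 24.7% of all genes.

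**Figure D3:**
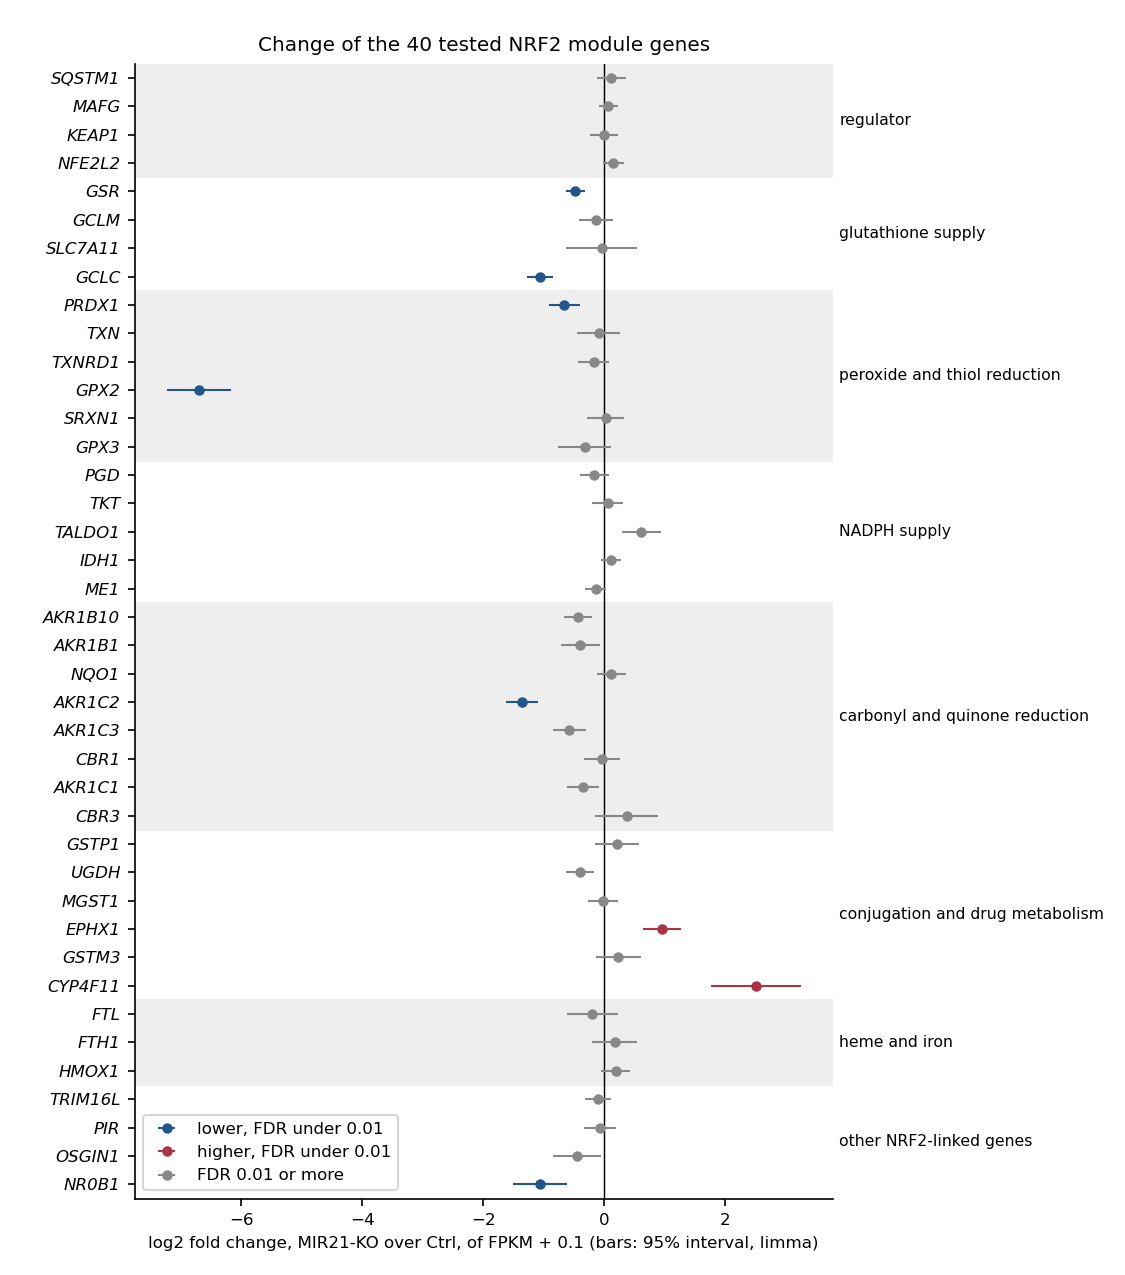
Log2 fold change (MIR21-KO over Ctrl, of FPKM + 0.1) of the 40 tested NRF2 genes with the 95% interval from limma, grouped by role. Blue points were called lower (6), red points higher (2) and grey points not called (32), and GPX2 stands alone at −6.70.

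None of the 4 regulators was called, where 16.0% of all genes were. NFE2L2, the gene for NRF2 itself (chromosome 2, 177227595 to 177392697, GRCh38), had 12.15, 12.16 and 11.95 FPKM in the Ctrl libraries and 14.3, 13.5 and 12.6 in the MIR21-KO libraries. The groups were separate but close, with a log2 fold change of 0.15 (95% interval −0.02 to 0.33, FDR 0.165, limma). KEAP1, its captor, had 26.5, 26.0 and 27.4 FPKM in Ctrl and 29.8, 26.6 and 23.6 in MIR21-KO. These groups overlapped, and the fold change was −0.01 (−0.24 to 0.22, FDR 0.973). MAFG, the DNA-binding partner, had 27.6, 25.6 and 27.6 FPKM in Ctrl and 27.6, 28.4 and 28.5 in MIR21-KO, a fold change of 0.07 (−0.09 to 0.23). SQSTM1 encodes p62, an autophagy receptor that can draw KEAP1 away from NRF2. It had 117.4, 120.6 and 117.8 FPKM in Ctrl against 142.3, 131.4 and 113.6 in MIR21-KO, and its groups overlapped (0.12, −0.12 to 0.35). For these 4 genes the intervals leave room for changes of at most 0.35 on the log2 scale in either direction.

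Of the 4 genes of glutathione supply, GCLC and GSR were called lower, where 8.38% of all genes were, and none was called higher. GCLC, the catalytic subunit of the enzyme that takes the rate-limiting step of glutathione synthesis (chromosome 6, 53497341 to 53616970), had 21.2, 19.9 and 20.5 FPKM in Ctrl and 9.27, 9.26 and 10.9 in MIR21-KO. The groups were far apart against the spread within them. The fall was 1.06 ± 0.089 (SE) on the log2 scale (FDR 0.000425, limma), and it was called in each of the 17 alternatives tried (highest FDR 0.00558). GCLM, the modifier subunit of the same enzyme and the carrier of an antioxidant response core and a miR-21-5p 8mer shown above, had a log2 fold change of −0.14 (−0.42 to 0.15, FDR 0.426). Whether the subunits differed in their change was not tested. GSR returns oxidised glutathione to its reduced form. Its values were tight, 89.2, 87.4 and 88.3 FPKM in Ctrl and 64.3, 64.3 and 61.9 in MIR21-KO, a fall of 0.48 ± 0.066 (FDR 0.00271). That call was lost without Ctrl replicate 1, 2 or 3 (FDR 0.0200, 0.0180 and 0.0212) and without MIR21-KO replicate 2 (0.0211). SLC7A11, the cystine importer that feeds the pathway, had a log2 fold change of −0.04 with a wide interval (−0.63 to 0.55), as MIR21-KO replicate 3 stood apart from the others.

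Among the 6 genes of peroxide and thiol reduction, GPX2 and PRDX1 were called lower, where 8.38% of all genes were. GPX2 fell further than any other NRF2 gene. It encodes a selenium-containing glutathione peroxidase best known from the gut epithelium (chromosome 14, 64939152 to 64942905). The Ctrl libraries had 78.6, 78.3 and 82.6 FPKM, and the MIR21-KO libraries had 0.930, 0.436 and 0.720, which rest on 19, 8 and 14 reads against 1262 to 1693 in Ctrl. Means differed 114.8-fold, and the log2 fold change was −6.70 ± 0.22 (SE, FDR 2.46e-05, limma), called in all 17 alternatives with values from −6.91 to −5.58. GPX3, the secreted relative of GPX2, had low and overlapping values around 2.59 and 2.03 FPKM (−0.32, FDR 0.224). PRDX1, an abundant peroxiredoxin that removes hydrogen peroxide, had 702.6, 750.0 and 738.4 FPKM in Ctrl and 513.8, 462.2 and 415.4 in MIR21-KO. The highest MIR21-KO value lay well below the lowest Ctrl value, and the fall was 0.66 ± 0.11 (FDR 0.00492). Without Ctrl replicate 1, 2 or 3 the FDR was 0.0250, 0.0283 and 0.0303 and without MIR21-KO replicate 2 it was 0.0318, so the call was lost there. TXN, TXNRD1 and SRXN1, which encode thioredoxin, its reductase and the enzyme that repairs overoxidised peroxiredoxins, had log2 fold changes of −0.09, −0.17 and 0.03 and overlapping groups. For SRXN1, 84.5% of the 100-base words of its longest transcript occur also in the overlapping gene AL121758.1, so its reads could not be assigned with certainty.

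The 5 genes that supply NADPH, the reductant behind glutathione and thioredoxin, held no call, where 16.0% of all genes were called. TALDO1, transaldolase of the pentose phosphate pathway, came closest with 111.4 ± 7.38 FPKM in Ctrl against 171.7 ± 29.4 in MIR21-KO (SD, n = 3). Its groups were separate and its log2 fold change was 0.61 (0.29 to 0.93), but the FDR of 0.0154 missed the threshold, and it was 0.00076 after removal of the GC and length trends. PGD and TKT, enzymes of the same pathway, had log2 fold changes of −0.16 and 0.06, and ME1 and IDH1, which make NADPH from malate and isocitrate, had −0.14 and 0.11.

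Of the 8 genes for carbonyl and quinone reduction, 1 was called (12.5%, against 16.0% of all genes), AKR1C2, which fell. This aldo-keto reductase acts on steroids and on aromatic hydrocarbon metabolites (chromosome 10, 4987400 to 5018031). It had 253.9, 269.7 and 273.4 FPKM in Ctrl and 115.4, 107.7 and 90.2 in MIR21-KO, so that the highest MIR21-KO library was far below the lowest Ctrl library. The fall was 1.35 ± 0.11 (SE) on the log2 scale (FDR 0.000381, limma) and was called in all 17 alternatives, with fold changes from −1.43 to −1.22. Its neighbours on chromosome 10 were also lower in each MIR21-KO library, AKR1C3 with −0.58 (FDR 0.0102) and AKR1C1 with −0.35 (FDR 0.0577), but neither was called. These genes are similar in sequence, and 32.9% of the 100-base words of AKR1C2 and 17.4% of those of AKR1C1 occur in another gene, mostly in each other, so the split of reads between them is uncertain. AKR1B10, which reduces retinal and other aldehydes, and AKR1B1, the aldose reductase, had log2 fold changes of −0.43 (FDR 0.0176) and −0.40 (FDR 0.0674) with separate groups. Both passed the threshold after removal of the GC and length trends (FDR 0.000659 and 0.00348, limma). AKR1C3 and AKR1C1 did not, with FDRs of 0.0392 and 0.316 there, though AKR1C3 was called in 7 of its 17 alternatives.

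NQO1, the quinone reductase often used to read out NRF2 activity, had 471.4, 478.5 and 482.1 FPKM in Ctrl and 571.8, 523.7 and 466.0 in MIR21-KO. The Ctrl values lay within the range of the MIR21-KO values, and the log2 fold change was 0.12 (−0.13 to 0.37, FDR 0.412, limma). The carbonyl reductases CBR1 and CBR3 had −0.04 and 0.37, the latter at 4.70 to 9.86 FPKM over both groups, and their groups overlapped.

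Of the 6 tested genes of conjugation and drug metabolism, EPHX1 and CYP4F11 were called higher, where 7.66% of all genes were, and none was called lower. EPHX1 encodes the microsomal epoxide hydrolase, which opens reactive epoxides (chromosome 1, 225810092 to 225845563). It had 58.9, 63.0 and 65.1 FPKM in Ctrl and 142.8, 121.7 and 102.1 in MIR21-KO, and although the MIR21-KO libraries were spread, the lowest of them was above every Ctrl library. The rise was 0.96 ± 0.13 (SE, FDR 0.00254, limma), which became 0.87 with an FDR of 6.77e-05 once the GC and length trends were removed. Leaving out Ctrl replicate 1, 2 or 3 gave FDRs of 0.0165, 0.0146 and 0.0140, and leaving out MIR21-KO replicate 2 gave 0.0174, so the call was lost in these fits. CYP4F11, a cytochrome P450 enzyme that hydroxylates long fatty acids (chromosome 19, 15912367 to 15934867), was near the detection limit in Ctrl. It had 0.351, 0.369 and 0.145 FPKM there, from 18, 16 and 8 reads, and 2.26, 2.03 and 1.82 in MIR21-KO, from 124, 100 and 95 reads. Means differed 7.05-fold and the log2 fold change was 2.51 ± 0.31 (FDR 0.00184, limma). The call was lost only without MIR21-KO replicate 2 (FDR 0.0153) among the 16 alternatives that gave it a value. With a Ctrl mean of 0.289 FPKM, under the filter of 0.5 FPKM, CYP4F11 entered the test only through its MIR21-KO values.

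UGT1A6, a glucuronosyltransferase, was too low to be tested. It was listed at 0.212, 0.144 and 0.127 FPKM in Ctrl and at 0, 0.0158 and 0.0149 in MIR21-KO, or 31 reads against 2. Relative to library size the ratio was 0.0617, with a 95% interval of 0.00716 to 0.243 that covers counting error only. The gene shares 58.2% of its 100-base words with other UGT1A genes, so these reads may belong to a relative. UGDH, which makes the sugar donor for glucuronidation, had 136.9 ± 4.04 FPKM in Ctrl against 104.1 ± 10.8 in MIR21-KO (SD, n = 3), a fold change of −0.40 with separate groups but an FDR of 0.0205. The glutathione transferases GSTP1, GSTM3 and MGST1 had log2 fold changes of 0.22, 0.23 and −0.01 with overlapping groups.

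**Figure D4:**
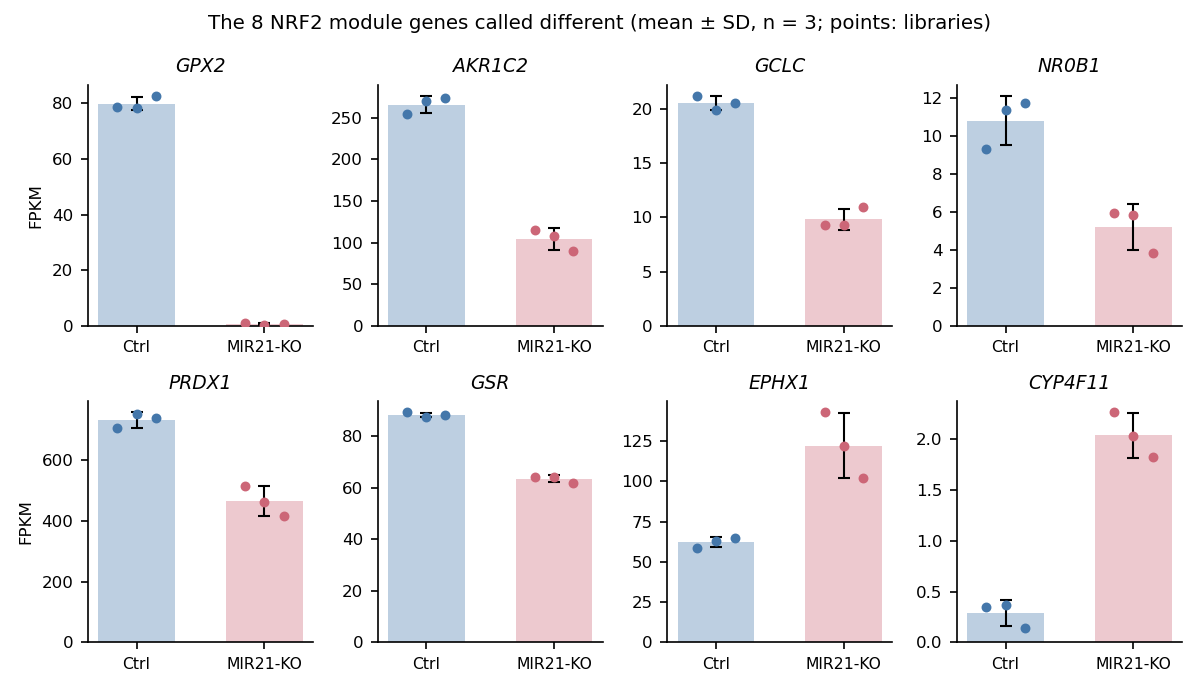
FPKM of the 8 NRF2 genes called at an FDR under 0.01, as bars for the mean and error bars for the SD (n = 3 libraries per group), with 1 point per library on linear axes from 0. The groups are separate in each panel, with 6 genes lower and 2 higher in MIR21-KO.

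The 3 genes of heme and iron handling were not called, where 16.0% of all genes were. FTL and FTH1 had 6980 ± 272.9 and 2372 ± 81.8 FPKM in Ctrl against 6182 ± 1276 and 2702 ± 491.6 in MIR21-KO (SD, n = 3), and their log2 fold changes of −0.20 and 0.17 pointed in opposite directions with overlapping groups. HMOX1, the inducible heme oxygenase, had a log2 fold change of 0.19 (−0.05 to 0.43, FDR 0.198). FTH1 shares 20.2% of its 100-base words with other loci, mostly its pseudogenes.

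Of the 4 remaining genes, 1 was called (25%, against 16.0% of all genes), NR0B1, which fell. It encodes an orphan nuclear receptor that lacks the usual DNA-binding domain and is known to be expressed in lung cancer cells with mutated KEAP1 (chromosome X, 30304206 to 30309598). It had 9.31, 11.4 and 11.7 FPKM in Ctrl and 5.93, 5.86 and 3.81 in MIR21-KO. No MIR21-KO library reached the lowest Ctrl library, and the fall was 1.06 ± 0.19 (SE, FDR 0.0072, limma). Of the 8 calls this one had the largest FDR. It was lost without Ctrl replicate 1, 2 or 3 (FDR 0.0191, 0.0318 and 0.0334), without MIR21-KO replicate 2 (0.0217), without the filter on low values and with plain limma. OSGIN1, a growth inhibitor induced by oxidative stress, had a fold change of −0.45 (FDR 0.0841) with separate groups. PIR, an iron-binding nuclear protein, and TRIM16L had −0.06 and −0.11 with overlapping groups, and TRIM16L shares 20.7% of its 100-base words with other genes, chiefly TRIM16.

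Set beside the sequences shown above, the calls fell on genes with and without a match. Of the 14 genes with an antioxidant response core in a promoter window, 2 were called higher (EPHX1, CYP4F11) and 1 lower (GPX2). CYP4F11 entered the test only through its MIR21-KO values. Of the 19 with windows but no core 3 were called lower, and of the 8 without a window 2 were called lower. Of all genes tested, 16.0% were called. Of the 5 genes holding a miR-21-5p match of at least 7 bases, NR0B1 and AKR1C2 were called lower, where 8.38% of all genes were. GCLM, AKR1C1 and GSTM3 were not called. The share called among all genes with such a match was not worked out. All of these counts rest on few genes, the untested UGT1A6 among the 14, and no test was made of them.

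A further 68 genes of the pathway, chosen from general knowledge, were examined in the same fit. Of the 60 tested, 5 were called higher and 5 lower (16.7%, against 16.0% of all genes), and their median log2 fold change was −0.05. Higher were CAT (1.06), which splits hydrogen peroxide, GSTO1 (0.88), a glutathione transferase, SOD2 (0.78), the mitochondrial superoxide dismutase, RIT1 (0.59), a RAS-related GTPase, and ABCC3 (0.39), an exporter of conjugates. CAT had 21.43, 19.95 and 23.33 FPKM in Ctrl and 46.5, 42.8 and 45.4 in MIR21-KO, and SOD2 had 13.03, 13.24 and 12.75 against 21.3, 22.2 and 23.7. Lower were the drug exporter ABCG2 (−1.26), the aldehyde dehydrogenase ALDH3A1 (−0.79), the transferrin receptor TFRC (−0.72), the mitochondrial peroxiredoxin PRDX3 (−0.60) and FECH (−0.38), which inserts iron into heme. CAT, SOD2 and ABCG2 kept their calls in every alternative that gave them a value, whereas the other 7 lost theirs without Ctrl replicate 1 or 3 or MIR21-KO replicate 2. With Ctrl replicate 1, 2 or 3 left out, the count of 10 became 3, 4 and 3. It was 3 when MIR21-KO replicate 2 was dropped and 23 when MIR21-KO replicate 3 was dropped. BACH1, a repressor that competes for antioxidant response elements, had a log2 fold change of −0.20 (FDR 0.488).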

How the data were processed

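PolyA RNA was converted to strand-specific libraries, 3 of Ctrl and 3 of MIR21-KO cells, grouped and numbered as the sample titles give them. The authors deposited 1 table with the length and the FPKM of each gene in each library, together with their own fold changes and p-values, which were not used. Submitters' processing notes name cutadapt 1.14, HISAT2 2.1.0, SAMtools 1.5, featureCounts 1.5.3 and the build hg38. How reads shared between genes were counted is not given in the sources used here. FPKM times length gave whole reads for 100% of values (tolerance 0.01), from 10631667 to 14345209 per library. At a length of 1 kb, 1 read equalled 0.0731 to 0.0930 FPKM. A listed 0 means that no read was counted, which an expected count of up to 3 reads can still give. All 37 mitochondrial genes were listed at 0.

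Genes averaging at least 0.5 FPKM entered the test as log2(FPKM + 0.1), in limma 3.58.1 under R 4.3.3 (eBayes with trend and robust fitting, two-sided, no covariate), with Benjamini-Hochberg adjustment over all 16006 genes and calls at an FDR under 0.01. The 41 genes, the further pathway genes, the markers and the tests were chosen with earlier results of these data known. Values in each library were to be given for NFE2L2, KEAP1, MAFG, SQSTM1, NQO1 and each gene called or with a log2 fold change of at least 1 in size. Of the further pathway genes, the 5 called genes with the largest change in each direction were named, besides BACH1; 1 other gene is not reported here. Values in each library of UGT1A6, FTL, SLC7A11, CAT and SOD2 were added after they were seen. Alternatives were pseudocounts of 1 and 0.01, no filter or a mean of at least 5 FPKM, median-ratio and total-read scaling, plain limma, voom on recovered reads, a replicate block, taking out the dependence of every library on GC content and length (lowess, span 0.3), protein-coding genes only, an FDR under 0.05 and leaving out each library. The fit was tested on simulated data, where false calls exceeded the nominal FDR. Coordinates, GC content and 3′ UTRs of at least 30 bases came from GENCODE 29 (GRCh38), and promoter windows and the microRNA from RefSeq (GRCh38.p14). Plots were made in Python 3.11.15 with matplotlib 3.10.9.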

Additional observations from a re-analysis of the deposited data

How the results depend on the processing

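GPX2, AKR1C2 and GCLC kept their calls in the 17 alternatives, and CYP4F11 in all but 1 of its 16. With the replicate block, 651 genes, 4 NRF2 genes (1 higher, 3 lower) and 3 of the further pathway genes were called, and EPHX1, GSR, PRDX1 and NR0B1 had FDRs of 0.0154, 0.0317, 0.0334 and 0.0249. Deviations of libraries with the same replicate number correlated at −0.17, −0.02 and −0.02, which shows no sign of pairing. These values cannot exclude pairing, as the MIR21-KO libraries also drift with GC content and length. The labels do not say whether libraries with the same number were handled together. Removing the GC and length trends gave 3954 genes, 13 NRF2 genes (10 lower) and 23 further pathway genes, and added AKR1B1, AKR1B10, OSGIN1, TALDO1 and UGDH to the calls. The genes called numbered 2568 as reported and 5114 at an FDR under 0.05, where 30 further pathway genes passed. These were 17 with voom on recovered reads and 17 among protein-coding genes. A minimum of 5 FPKM left 1 NRF2 gene called higher, since CYP4F11 was not tested there. Leaving out 1 library at a time gave 768 to 3400 genes, 3 to 12 NRF2 genes (0 to 3 higher, 3 to 9 lower) and 3 to 23 further pathway genes. The fewest calls came without MIR21-KO replicate 2 and the most without MIR21-KO replicate 3, for all genes and for NRF2 genes alike. The cause of these shifts was not tested. The median log2 fold change of the NRF2 genes ranged from −0.11 to −0.01. With 8 to 19 reads in a library, values of GPX2 in MIR21-KO and of CYP4F11 in Ctrl are limited by depth, as is UGT1A6.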
